A study of Mus musculus with 10 samples.

Results

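The dual-specificity MAP kinase phosphatases were examined in microglia, the resident macrophages of the brain, as 9 genes: Dusp1, Dusp2, Dusp4, Dusp5, Dusp6, Dusp7, Dusp8, Dusp10 and Dusp16. They were taken by name from the 21827 protein-coding genes of the annotation, not by a measured value. Earlier results of these data were known when they were chosen. Below, counts for the family refer to these 9 genes. Marked genes were those for which a peak of H3K4me3 (histone H3 trimethylated at lysine 4, a modification found at active and poised promoters) was within 1 kb of one of the gene's transcription start sites in both replicates. The interactions of a gene were those for which the 5 kb bin with a start site was one end. The cells were CD45+ CD11b+ CX3CR1+ microglia sorted from the brains of C57/Bl6 mice with the Wild type genotype, that is, with an intact Sall1 enhancer, and the study's methods describe adult male animals. H3K4me3 chromatin immunoprecipitation followed by sequencing (ChIP-seq) was performed in 2 replicates, with 2 input libraries as the control for unenriched chromatin. Proximity ligation-assisted ChIP-seq (PLAC-seq), which enriches ligated chromatin contacts for H3K4me3, was also performed in 2 replicates, and both enter a single list of 26689 interactions. One cell type of one genotype was measured by these assays, so each value describes these microglia and no group was compared with another.

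MAP kinases (ERK, JNK and p38) are switched on when an upstream kinase phosphorylates a threonine and a tyrosine of the activation loop, and the phosphatases of this family switch them off by removing both phosphates. Dusp1, Dusp2, Dusp4 and Dusp5 encode inducible nuclear enzymes, Dusp6 and Dusp7 cytoplasmic enzymes selective for ERK, and Dusp8, Dusp10 and Dusp16 enzymes that prefer JNK and p38. Several are transcribed in response to the kinases they inactivate and so form negative feedback loops. In macrophages, Dusp1 is known as a brake on inflammatory p38 and JNK signaling.

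ChIP depth was 12.8 and 13.4 M tags, and the peak lists held 27845 and 26574 peaks of 1 size, 184 bp and 188 bp (1 peak of the second list is shorter). The value of a peak is its tag number per 10 M tags, so values of different genes refer to the same length of DNA. The sorted cells were checked against their label: all 8 microglia markers (among them P2ry12, Tmem119, Cx3cr1 and Sall1) were marked, with summed values of 1627 and 1662. None of 5 markers of monocytes, neutrophils and lymphocytes had a peak in either replicate. Summed values were 36.6 and 23.1 for 5 neuronal markers (2 marked), 24.1 and 33.6 for 4 astrocyte markers (2 marked), 71.7 and 89.5 for 4 endothelial and mural markers (2 marked) and 15.6 and 19.4 for 4 border macrophage markers (1 marked). The 4 oligodendrocyte markers summed to 178.4 and 225.2, of which Mbp, a gene with several start sites, gave 162.8 and 210.3, while Mog had no peak. The part of other cells in the values below was not tested.

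All 9 phosphatase genes were marked with H3K4me3 in both replicates, against 59.4% of 20696 autosomal protein-coding genes. Their values ranged from 119.2 to 374.4 tags per 10 M, the signal of the scaled input in the same peaks was at most 2.8, and the lowest enrichment over input was 62.5-fold. The median over the genes was 250.8, compared with 220.4 over the 12291 marked autosomal genes, and 5 of 9 lay above that median. This order of medians rested on one start site: without a distant start of Dusp1, described below, the median over the genes was 201.6. Dusp7, Dusp16 and Dusp6 were highest, Dusp10 and Dusp1 followed, and Dusp5, Dusp4, Dusp8 and Dusp2 were below the median of all marked genes. Of the 8 pairs of neighbors in this order, the 2 pairs among Dusp7, Dusp16 and Dusp6 overlapped between replicates and the other 6 did not. Some of the 6 were barely apart: the lower value of Dusp6 was 302.8 and the higher value of Dusp10 was 299.1. For Dusp4 and Dusp8 these were 151.4 and 151.1. The Poisson intervals of these values overlapped in both cases. With 2 replicates no test between genes was made.

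**Figure D1:**
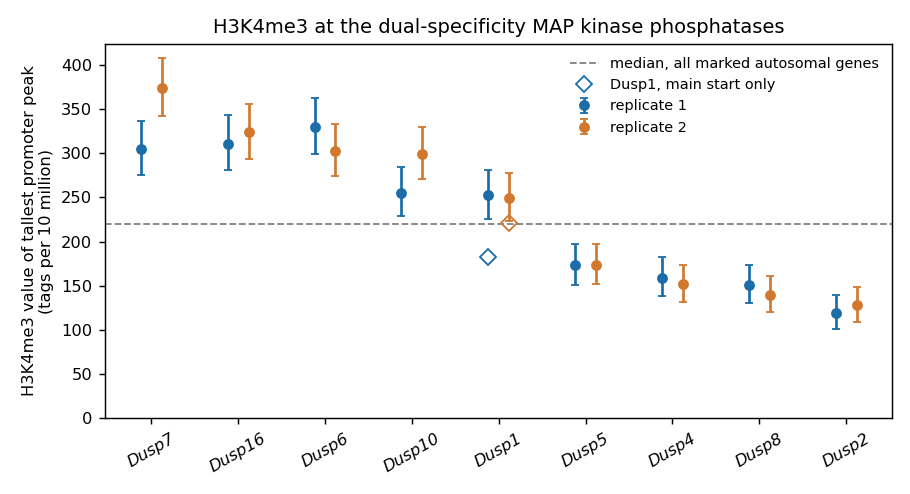
Value of the tallest H3K4me3 peak within 1 kb of a start site (tags per 10 M, vertical axis) for each phosphatase gene, with 1 point per replicate, and bars for the 95% exact Poisson interval of the tag count. Open diamonds give Dusp1 at its main start sites only, and the dashed line is the median of 220.4 over all marked autosomal genes; Dusp7, Dusp16, Dusp6, Dusp10 and Dusp1 lie above the line, while the mean of Dusp1 at its main starts is 201.6.

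By role, the tallest peaks of the cytoplasmic ERK phosphatases Dusp6 and Dusp7 had values between 302.8 and 374.4 in both replicates. By this measure the nuclear phosphatases lay between 119.2 and 252.4 and did not overlap with them. The value of 252.4 is from the distant start of Dusp1, described below. With all peaks within 1 kb summed, these roles overlapped: Dusp6 had 542.2 and 302.8, and the nuclear Dusp5 315.6 and 323.0. The JNK and p38 phosphatases spanned 139.5 to 323.7, with Dusp8 low and Dusp16 high. Interactions were also uneven, with 31 for the cytoplasmic pair, 17 for the nuclear genes and 2 for the JNK and p38 genes. Single genes gave most of them, Dusp6 26 of the 31 and Dusp4 12 of the 17. These are 2 to 4 genes per role, and the differences are a description.

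In all, 50 interactions joined the start bins of the family to other bins. At least 1 interaction was listed for 5 of 9 genes (against 37.8% of the marked autosomal genes), and 5 or more for 4 of 9 (against 9.12% of the marked autosomal genes). Dusp6 had 26, Dusp4 12, Dusp7 and Dusp1 5 each and Dusp10 2. Dusp2, Dusp5, Dusp8 and Dusp16 had none. The counts at Dusp1 and Dusp7 stand at the limit of 5, and with false discovery rates up to 0.001 only Dusp6 and Dusp4 still had 5 or more. Without the distant start of Dusp1, described below, Dusp1 had 3 interactions and 3 of 9 genes had 5 or more. The median distance was 267.5 kb, compared with 125 kb over the 14781 interactions that have a protein-coding start in an end bin, and the median of read pairs over the expected count was 4.48 compared with 3.91. The median distance differed between the genes, with 20 kb for Dusp1, 55 kb for Dusp7, 207.5 kb for Dusp6, 635 kb for Dusp4 and 697.5 kb for Dusp10, and Dusp6 and Dusp4 give most of the interactions. Both replicates are summed in the list, so the intervals given for single contacts are exact 95% Poisson intervals that cover counting error only.

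**Figure D2:**
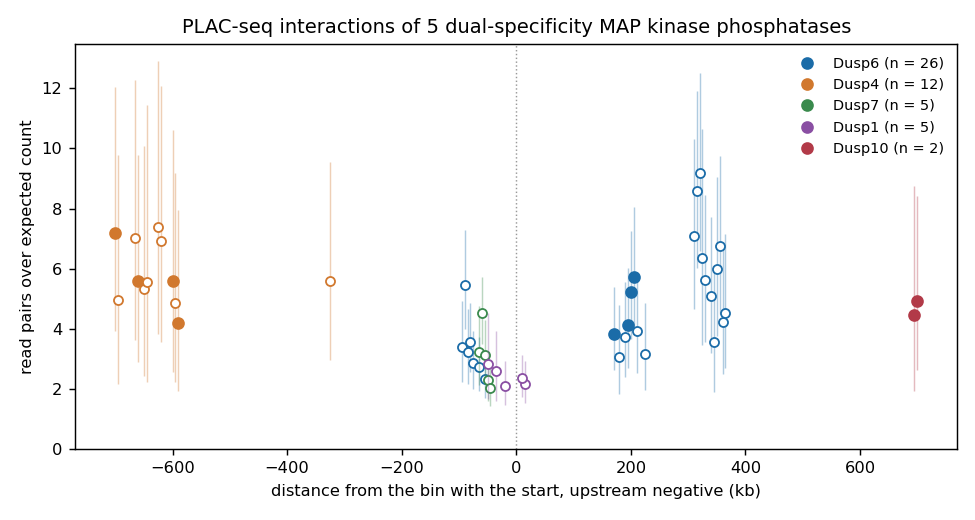
Read pairs over the expected count (vertical axis) against the distance of the other bin from the bin with the start (kb, upstream negative) for each of the 50 interactions, colored by gene, with 95% exact Poisson intervals. Filled points are other bins with an H3K4me3 peak in both replicates; Dusp6 has 3 groups of contacts, Dusp4 reaches 700 kb upstream and Dusp10 700 kb downstream.

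Dusp6, which encodes the ERK-selective cytoplasmic phosphatase induced by ERK itself, lies on the plus strand at chr10:99263231 (mm10). Its tallest peak had values of 329.5 and 302.8 and was centered 721 and 676 bp downstream of the start. No peak of replicate 2 lay within 500 bp of the start, whereas replicate 1 had a peak of 83.4 there, so Dusp6 was not marked in both replicates with that narrower window. A second summit 1600 and 1601 bp upstream reached 242.3 and 170.8. Peaks joined at gaps of up to 1 kb covered 2505 bp in replicate 1 and 188 bp in replicate 2, so the width of the marked domain differed between libraries.

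The 26 interactions of Dusp6 exceeded those of 99.9% of marked autosomal genes and fell in 3 groups, each called as 1 cluster. The first comprised 7 bins 55 to 95 kb upstream, 6 of which overlap the neighboring gene Poc1b, with 261 read pairs against 82.6 expected (a ratio of 3.16, with an interval of 2.79 to 3.57, in the order used for every contact here). The second comprised 8 bins 170 to 225 kb downstream, 6 of which overlap the long noncoding RNA genes Gm35035 or Gm34983, with 215 read pairs against 52.8 expected (4.07, 3.55 to 4.65). The third comprised 11 bins 310 to 365 kb downstream, with 261 read pairs against 42.7 expected (6.12, 5.40 to 6.91). The intervals of the 3 groups did not overlap except for a narrow range between the first and second, and the ratio was highest for the most distant group. Only bins that passed the calling limits are summed, so the ratios are of counts selected as high. The lowest listed ratio also rose with distance, from 2.32 in the first group to 3.06 in the second and 3.56 in the third. The part of the calling limits in the order of the groups was not tested. The strongest contact of the third group, with the intergenic bin chr10:99580001-99585000 at 320 kb, had 40 read pairs against 4.35 expected (9.20, 6.57 to 12.5, false discovery rate 1.86e-21). In the first group the strongest was an intronic bin of Poc1b at 90 kb with 46 read pairs against 8.41 (5.47, 4.00 to 7.29), and in the second a bin of Gm34983 at 205 kb with 32 against 5.61 (5.71, 3.91 to 8.06).

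None of the 26 other bins held a protein-coding start. The bins of the first and second groups were joined to no other protein-coding start, whereas 9 of the 11 bins of the third were also joined to starts of Poc1b and Galnt4 (named after their values were seen). An H3K4me3 peak was present in both replicates in 4 bins of the second group, where overlapping peaks had values of 39.0 and 62.7 at 170 kb and 27.3 and 53.0 at 200 kb, far below the promoter. A further peak of 32.7 at 200 kb was present in replicate 1 only. In the third group no bin had a peak in both replicates. A peak of 73.2 and 108.9 lay mostly in a bin with no listed contact to Dusp6, and in replicate 2 its last 29 bases reached the contacted bin 340 kb away. Single bins of these groups took part in up to 18 interactions, the most at the bin 200 kb downstream. When the bins on each side of the start bin were added, Dusp6 had 43 interactions.

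The sequences under the 2 highest of these peaks are shown because they are the places within the contacted bins of Dusp6 where the promoter mark was highest in both replicates. They are the plus strand of GRCm38.p6 over the replicate 2 peaks, at chr10:99431234-99431422 and chr10:99461423-99461611. Neither holds one of the motifs searched in promoters below, on both strands, so no letter is in capitals. Of the other 3 replicate 2 peaks of the second group that overlap a replicate 1 peak, with values of 11.2 to 11.9, 1 in the bin at 200 kb held the letters of the TATA box, as did 6.02% of 10394 replicate 2 peaks over 1 kb from every protein-coding start.
Dusp6 170 kb: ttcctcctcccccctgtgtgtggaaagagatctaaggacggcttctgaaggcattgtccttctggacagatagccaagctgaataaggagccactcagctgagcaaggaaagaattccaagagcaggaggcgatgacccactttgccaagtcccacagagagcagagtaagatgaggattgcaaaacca
Dusp6 200 kb: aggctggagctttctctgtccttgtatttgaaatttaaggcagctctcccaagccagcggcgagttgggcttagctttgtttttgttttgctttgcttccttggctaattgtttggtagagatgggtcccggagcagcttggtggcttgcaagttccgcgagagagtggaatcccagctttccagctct

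Dusp7, the other cytoplasmic ERK phosphatase among the genes examined, starts at chr9:106368632 on the plus strand. It had the highest mean of the family, with peak values of 304.6 and 374.4 centered 327 and 233 bp downstream of the start, and 90.9% of marked autosomal genes lay lower. Peaks chained at gaps of up to 1 kb spanned 2343 and 1447 bp, compared with a median of 1 peak (184 and 188 bp) over all marked autosomal genes. The domain of Dusp7 was wider than that of 99.1% and 96.4% of these genes, and with gaps of up to 500 bp it averaged 703 bp. All 5 of its interactions joined it to bins 45 to 65 kb upstream within Poc1a, in a single cluster with 203 read pairs against 68.9 expected (2.95, 2.55 to 3.38). The strongest, at 60 kb, had 66 read pairs against 14.6 (4.51, 3.48 to 5.73, false discovery rate 3.66e-19), more read pairs than any other contact of the family. None of these bins had an H3K4me3 peak, and 2 of the 5 were also joined to other protein-coding starts, among them that of Rpl29.

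**Figure D3:**
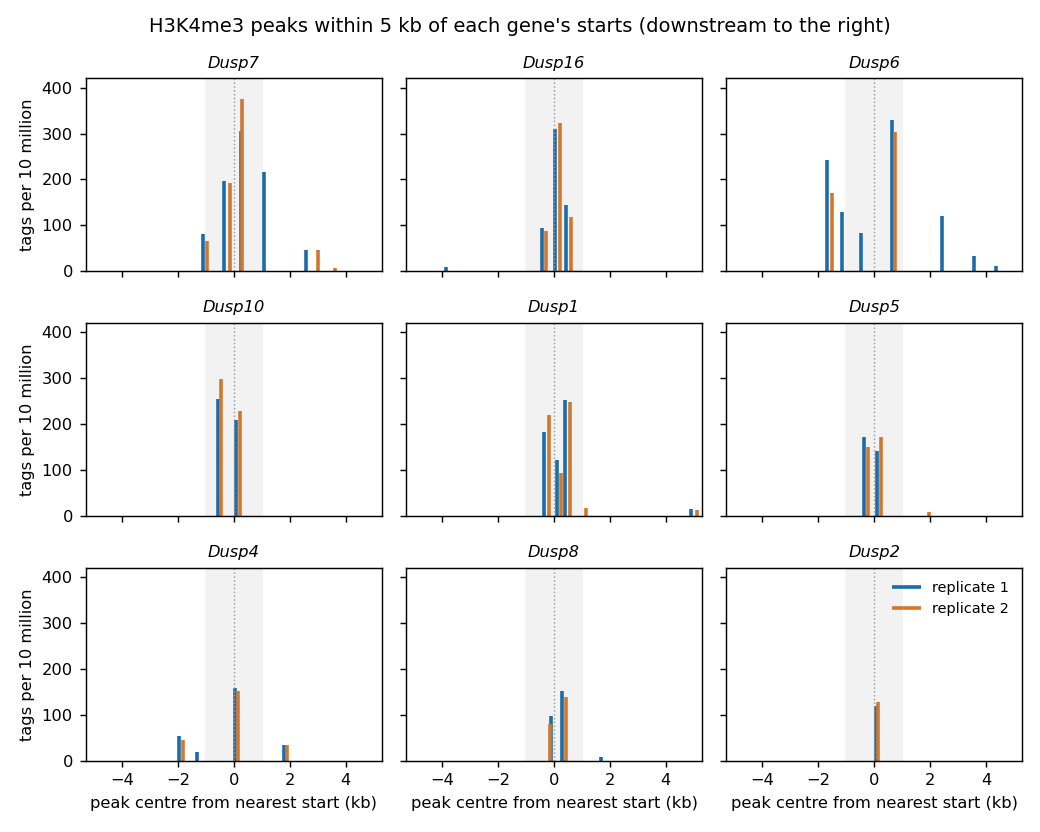
H3K4me3 peaks within 5 kb of the start sites of each gene, with the distance of the peak center from the nearest start (kb, downstream positive) on the horizontal axis and the value (tags per 10 M) on the vertical axis. Lines of the replicates are drawn slightly apart and the gray band is the window of 1 kb; peaks at the distant start of Dusp1 are drawn in the same panel as those at its main starts, and Dusp6 has flanking peaks in replicate 1 that replicate 2 lacks.

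Among the nuclear phosphatases, Dusp4, which inactivates ERK and JNK in the nucleus, starts at chr8:34807297 on the plus strand. Its peak had values of 158.9 and 151.4, below 220.4, and was centered 109 and 78 bp downstream of the start. Lower summits lay on either side, at 1879 and 1901 bp upstream (53.0 and 44.8) and at 1890 and 1836 bp downstream (35.1 in both). Dusp4 had 12 interactions, more than 98.5% of marked autosomal genes. Its promoter value and its number of contacts ranked differently within the family, as did those of Dusp16, with high H3K4me3 and no interaction.

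The contacts of Dusp4 all lay upstream, with 11 bins 590 to 700 kb away (113 read pairs against 19.3 expected, 5.84, 4.82 to 7.03) and 1 intergenic bin at 325 kb (13 against 2.33, 5.58, 2.97 to 9.54). Counts per bin were low, 7 to 14 read pairs in the distant group, and none of the 12 interactions had 20. The bin at 700 kb holds the start of Dctn6, a dynactin subunit gene, with H3K4me3 values of 271.9 and 258.8 and 14 read pairs against 1.95 expected (7.19, 3.93 to 12.1). The bin at 660 kb holds the start of Leprotl1, with values of 293.7 and 349.8 and 12 read pairs against 2.14 (5.60, 2.89 to 9.78). The bin at 695 kb holds the start of Gm10131, which had no H3K4me3 peak. The largest ratio was at an intergenic bin 625 kb away, with 12 read pairs against 1.62 (7.39, 3.82 to 12.9), and its interval contains the ratios at Dctn6 and Leprotl1. The other bins with H3K4me3 in both replicates, at 600 and 590 kb, had values of 41.3 and 37.3 and of 17.9 and 23.1.

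Dusp1, the rapidly induced nuclear phosphatase of p38 and JNK, has its main starts at chr17:26508519 and chr17:26508472 on the minus strand, and a longer transcript starts 53.6 kb upstream at chr17:26562128. Its values of 252.4 and 249.1 come from the distant start, which lies 639 bp from the start of Ergic1 and shares with it the same peak. At the main starts the tallest peak had values of 182.3 and 220.8 (201.6 ± 27.2, SD, n = 2), and 43.1% of marked autosomal genes lay lower. This peak was centered 271 bp upstream of the start in both replicates, and a lower one lay 188 and 158 bp downstream (123.1 and 94.0). The 5 interactions of Dusp1 divided between the starts. The bin with the main starts had 3, at 20, 35 and 50 kb upstream within the intron of the longer transcript, with 73 read pairs against 30.9 expected (2.36, 1.85 to 2.97). The bin with the distant start, which is also that of Ergic1, had 2, at 10 and 15 kb, with 85 read pairs against 37.8 (2.25, 1.79 to 2.78). The 5 interactions include the shortest contacts of the family, at ratios of 2.10 to 2.82, and with false discovery rates up to 0.001 only 1 of the 5 remained. This was the contact at 10 kb of the bin shared with Ergic1, so none of the main starts remained. No H3K4me3 peak lay in any of the 5 other bins.

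Dusp5, a nuclear phosphatase selective for ERK, starts at chr19:53529109 on the plus strand. Its values were 173.0 and 173.1, with the tallest peak 286 bp upstream of the start in replicate 1 and 169 bp downstream in replicate 2. Both peaks were present in both libraries, the upstream one at 173.0 and 149.9 and the downstream one at 142.6 and 173.1. Dusp2, a nuclear phosphatase of activated leukocytes, starts at chr2:127336159 on the plus strand and had the lowest values, 119.2 and 127.6, in a single peak centered 125 and 44 bp downstream of the start. Of the marked autosomal genes, 34.6% lay lower than Dusp5 and 24.4% lower than Dusp2. Neither gene had an interaction, and no interaction was listed for any bin within 20 kb of their starts.

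Among the JNK and p38 phosphatases, Dusp16 was highest, with values of 310.9 and 323.7 in a peak 121 and 123 bp downstream of a start at chr6:134792475 (minus strand). Flanking peaks of 144.1 and 119.3 downstream and of 95 and 88.8 upstream gave a width of 1190 and 1239 bp, more than at 92.7% and 94.1% of marked autosomal genes. Dusp10 starts at chr1:184034381 on the plus strand and had values of 255.5 and 299.1, 491 and 518 bp upstream of the start, with a second peak of 209.6 and 228.2 downstream. Both peaks are shared with 1700056E22Rik, whose start lies 383 bp away. Dusp8 starts at chr7:142095272 on the minus strand, and its values were lower, 151.1 and 139.5. Dusp8 and Dusp16 had no interaction and none within 20 kb, so at the depth of this list no contact was detectable for Dusp16 although its promoter value exceeded that of 85.7% of marked autosomal genes.

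Dusp10 was joined to bins 695 and 700 kb downstream. The latter holds the start of Hlx, a homeobox gene, with H3K4me3 values of 328.8 and 266.3, and the contact had 13 read pairs against 2.64 expected (4.93, 2.62 to 8.42, false discovery rate 0.000128). The bin at 695 kb had 8 read pairs against 1.80 (4.45, 1.92 to 8.76). Because the start bin is shared, the same 2 interactions belong to 1700056E22Rik. The Hlx bin took part in 21 interactions in all. With false discovery rates up to 0.0001 no interaction of Dusp10 remained.

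Over the family, 4 of the 50 interactions (8%) ended in a bin with a protein-coding start, namely those of Dctn6, Gm10131, Leprotl1 and Hlx, compared with 9.44% of the 14781 interactions with a protein-coding start. Peaks of H3K4me3 in both replicates were present in 10 of the 50 other bins (20%), and at both ends of 2076 of the 14781 interactions (14.0%). These shares are not alike, because every start bin of the family held such peaks, which was not required of the 14781. Peaks of the replicates in a bin need not overlap, and in the Dusp10 bin at 695 kb (17.9 and 11.9) they did not. The genes with most contacts had the most distant neighbors: the nearest start of another protein-coding gene was 158 kb from Dusp4 (Tnks) and 137 kb from Dusp6 (Phxr2). It was 60.8 kb from Dusp7 (Rpl29), 60.0 kb from Dusp5 (Nutf2-ps1), 53.0 kb from the main starts of Dusp1 (Ergic1), 37.5 kb from Dusp16 (Crebl2), 25.5 kb from Dusp8 (Gm45618), 2.48 kb from Dusp2 (Astl) and 0.383 kb from Dusp10. Dusp5 and Dusp7, at like distances from their neighbors, had 0 and 5 interactions.

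Promoter sequences were taken from RefSeq (GRCm38.p6), which matched 8 of the 9 genes, without Dusp4, and the 250 bases upstream of the start were searched on both strands. Their median GC content was 68.4% compared with 60.4% over 12788 promoters of marked genes, from 56.4% at Dusp6 to 77.2% at Dusp7. The observed over expected frequency of CpG was 0.845 in the median compared with 0.727, and the lowest was Dusp2 with 0.629. The cAMP response element (TGACGTCA) occurred in Dusp1 and Dusp8, and in 2.65% of the promoters of marked genes. The E-box CACGTG occurred in Dusp1 and Dusp2 (8.28%), the core of the PU.1 motif (GAGGAAGT, read on the opposite strand) in Dusp5 (2.30%) and the CArG box, the motif of serum response factor, in Dusp5 (1.13%). The AP-1 motif TGANTCA and the TATA box letters TATAAA were found in none of the 8 windows (4.05% and 6.08%). No searched motif was found in Dusp6, Dusp7, Dusp10 or Dusp16.

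The upstream stretches with a match are given here, without bases that the annotation places in an exon of the gene, because the matches can be set beside the H3K4me3 peaks that flank them. Capitals mark the matches. They lie at chr17:26508520-26508672 (minus strand), chr7:142095285-142095484 (minus strand), chr19:53528945-53529108 (plus strand) and chr2:127335959-127336158 (plus strand).
Dusp1: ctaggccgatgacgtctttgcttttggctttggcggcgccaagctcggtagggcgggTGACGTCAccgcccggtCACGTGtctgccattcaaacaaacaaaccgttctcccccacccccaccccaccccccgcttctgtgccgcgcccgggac
Dusp8: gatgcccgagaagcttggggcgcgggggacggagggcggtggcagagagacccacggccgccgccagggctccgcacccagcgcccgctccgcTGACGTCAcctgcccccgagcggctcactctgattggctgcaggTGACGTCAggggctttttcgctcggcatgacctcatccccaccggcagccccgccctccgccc
Dusp5: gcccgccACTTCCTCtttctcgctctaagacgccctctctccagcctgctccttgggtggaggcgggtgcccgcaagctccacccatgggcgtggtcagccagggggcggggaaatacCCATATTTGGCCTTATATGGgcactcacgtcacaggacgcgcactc
Dusp2: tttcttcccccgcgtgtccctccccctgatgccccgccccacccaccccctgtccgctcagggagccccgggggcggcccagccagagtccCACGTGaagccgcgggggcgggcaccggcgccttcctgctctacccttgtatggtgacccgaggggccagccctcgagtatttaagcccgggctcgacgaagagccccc

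In Dusp1 the cAMP response element and the E-box began 143 and 126 bases upstream of the RefSeq start. Both lay in the gap between the upstream and the downstream H3K4me3 peak in both replicates, the former 83 and 81 bp from the upstream peak. More than 1 copy of the cAMP response element was found in 0.0704% of the promoters of marked genes. Dusp8 had 2 copies, at 107 and 63 bases upstream of its RefSeq start, which lies 12 bp from the start given above. The first copy lay across the edge of an H3K4me3 peak in each replicate (96.6 and 80.6, with 6 and 7 of its 8 bases inside), and these peaks were offset from each other, centered 25 and 207 bp upstream of the start. The second copy lay inside the peak of replicate 1 and outside that of replicate 2. More than 1 CArG box, adjoining or not, was found in 0.0156% of the promoters of marked genes. Dusp5 had 2 adjoining copies at 82 and 72 bases upstream of its RefSeq start, which lies 36 bp downstream of the start given above. These boxes lay between the peaks of Dusp5. The first was 148 and 173 bp from the upstream peak, and the second 112 and 102 bp from the downstream peak. The E-box of Dusp2 began 109 bases upstream, 137 and 54 bp outside its only peak. A match gives letters only, and binding of a factor was not measured here.

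The rest of the MAP kinase pathway was followed in lists of its kinases, inhibitors and other phosphatases. The counts are to be read beside all marked autosomal genes, of which 37.8% had an interaction and 9.12% had 5 or more. Of the MAP kinases and MAP kinase kinases, 16 of 17 were marked (median value 260.5), 7 had an interaction and 2 had 5 or more. Mapk14 and Mapk11, which encode p38 kinases, had 5 each and Mapk12 4. Mapk3, which encodes an ERK, had none with values of 325.7 and 405.8, as had Map2k4 (372.4 and 335.7) and Map2k2 (325.7 and 358.8). All 13 MAP3 kinases were marked (median 273.4), 5 had an interaction and 2 had 5 or more: Map3k5 with 6 and Map3k14 with 5, followed by Map3k20 with 4. Map3k4 (388.8 and 402.0) and Map3k2 (287.5 and 422.2) had none. All 9 MAPK-activated kinases were marked (median 297.5) and 7 had an interaction, Rps6ka1 with 9 and Rps6ka5 and Mapkapk3 with 4 each. Mapkapk5 (333.4 and 398.3) and Rps6ka2 (143.3 and 136.5) had none.

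The RAS-ERK feedback inhibitors, which restrain the same pathway as Dusp6, were marked in 10 of 11 cases (median 262.7). Of these, 5 had an interaction and 3 had 5 or more, namely Spry1 with 18, Spred1 with 14 and Rasa3 with 6. Rasa1 (334.2 and 314.0), Rasa2 (201.8 and 297.6) and Nf1 (219.7 and 263.3) had none. Interactions summed over the genes were 44 for these 11 genes, 22 for the 17 MAP kinases and MAP kinase kinases, 19 for the 13 MAP3 kinases, 22 for the 9 MAPK-activated kinases and 50 for the 9 dual-specificity phosphatases. The count of Dusp6 was the highest of any gene in these lists. The MAPK tyrosine phosphatases had little promoter mark: Ptpn7 had no peak in either replicate, Ptpn5 had values of 18.7 and 31.3 with 1 interaction, and Ptprr 14.0 and 9.70 with none. Of the 12 atypical dual-specificity phosphatases, which lack the MAP kinase binding domain of the family described here, 10 were marked (median 180.6) and 4 had an interaction. Dusp12 and Dusp22 had 7 each and Dusp23 2, while Dusp11 (289.0 and 313.3), Dusp28 (237.6 and 276.7) and Dusp19 (149.6 and 137.2) had none.

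**Figure D4:**
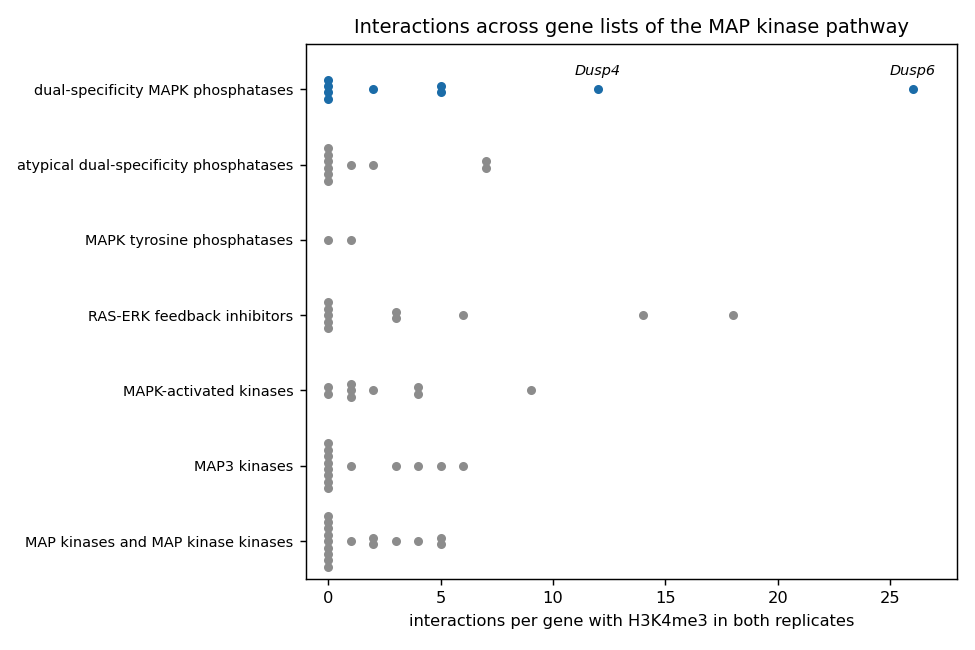
Number of interactions (horizontal axis) of each gene with H3K4me3 in both replicates, with 1 point per gene, for 6 lists of the MAP kinase pathway (gray) and the dual-specificity MAP kinase phosphatases (blue). Dusp6 with 26 lies furthest to the right, and the next highest of the other lists are Spry1 with 18 and Spred1 with 14.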

How the data were processed

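H3K4me3 ChIP-seq, input and PLAC-seq libraries of sorted wild-type microglia were grouped by assay as the labels give them. Hi-C libraries (4) were left out. No label ties a replicate to an animal of its own, so the spread between them may be technical.

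The submitters' processing notes name Bowtie2, HOMER and mm10. The authors deposited 1 HOMER peak list per ChIP library, with a signal per peak (tags per 10 M), a whole tag count, scaled input signal and fold over input (a ratio). The study's methods name another pipeline for the peaks used in interaction calling, so those calls may differ from the deposited lists. The authors combined both PLAC-seq libraries in 1 list made with MAPS in 5 kb bins, and deposited read pair counts, expected counts and a false discovery rate (an adjusted p-value, at most 0.0100). Their columns show at least 7 read pairs and a ratio to expected of at least 2.00. The depth of PLAC-seq is unknown, since no library total was used.

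Start sites were those of protein-coding transcripts in GENCODE (mm10), without the mitochondrial genome. The tallest peak within 1 kb gave a gene's value. Background shares are over autosomal genes, since the list holds interactions on 19 autosomes. Peaks were chained at gaps of up to 1 kb for widths. Intervals are exact 95% Poisson intervals and cover counting error only. Those of contacts are for bins that had already passed the calling limits. Joins were tested on simulated data. Python 3.11.15, pandas 2.3.3, numpy 2.4.6, scipy 1.17.1 and matplotlib 3.10.9 were used. The genes and the pathway lists were chosen with earlier results of these data known. Named were all family members, genes that share or are joined to their start bins, and per list the 3 genes with most interactions and up to 3 marked genes without any, by H3K4me3, except 1 gene that is not reported here. No test was made, since 1 cell type of 1 genotype was measured. Alternatives were other windows, peak thresholds, replicates and interaction filters.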

Additional observations from a re-analysis of the deposited data

How the results depend on the processing

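All 9 genes were marked under each alternative tried except the window of 500 bp, with 8 marked. The median H3K4me3 value of the genes moved from 250.8 to 211.9 with peaks within 500 bp, to 422.5 with all peaks within 1 kb summed, and to 201.6 without the distant start of Dusp1, an alternative chosen after seeing the data. The 50 interactions became 33 with false discovery rates up to 0.0001 and 30 with at least 20 read pairs. They fell in 12 clusters, and 9 remained when only cluster summits were kept, since some clusters had no summit among them. Genes with 5 or more interactions fell from 4 to 2 with rates up to 0.001, 2 up to 0.0001 and 2 with at least 20 read pairs. They fell to 3 without the distant start of Dusp1 and to 0 with only cluster summits kept. Genes with at least 1 fell from 5 to 3 with at least 20 read pairs. Summing peaks moved the values of 7 of 9 genes beyond the replicate SD, and a gap of 2 kb the width of 5. Contacts of 1 gene often lay in neighboring bins of the same cluster, so they cannot be taken as independent of each other. The pooled list gives no spread between PLAC-seq replicates. A gene without a listed interaction had none detectable at this depth. Protein sequences of the genes were not compared. No paired analysis was possible because no groups were compared.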
